A study of Mus musculus with 6 samples.

Results

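The genes described here encode the subunits of NF-κB, 2 of its inhibitors and 3 genes that NF-κB switches on. They are the subunit genes Nfkb1, Nfkb2, Rel, Rela and Relb, the inhibitor genes Nfkbia and Nfkbie, and the feedback and target genes Tnfaip3, Birc3 and Icam1. These 10 genes were chosen by name, for their roles in the pathway, with earlier results of these data known. They were found on the arrays as the gene probes whose accession matched these symbols, which gave 12 of the 55681 gene probes. A probe was kept when the scanner software called it well above background in 1 genotype's channel, on A and B alike, for 2 pairs or more. Of the 10 genes, 9 had such a probe, and these 9 were part of the 22503 genes tested.

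RNA came from sorted live CD45- cells, that is, cells without the leukocyte surface protein CD45, of RANK+/+ and RANK-/- MMTV-PyMT mammary tumors. All tumors carried the polyomavirus middle T oncogene under the MMTV promoter, which is active in mammary epithelium, and all grew as orthotopic transplants in syngeneic C57BL/6 females with intact RANK. The donors of the RANK-/- tumors lacked RANK in the germline, so both groups differed by the genotype of the transplanted cells, while host fibroblasts and endothelium kept RANK and passed the CD45- gate. Each of 3 pairs, 1 RNA of each genotype, was hybridized to 2 technical replicate 2-color arrays, A and B, giving 6 arrays. In pair 1 the RANK-/- RNA was labeled with Cy5, and in pairs 2 and 3 with Cy3, so pair 1 and its dye arrangement cannot be told apart. Array error, as used below, is the spread between arrays A and B. They shared one dye arrangement in each pair, so that spread holds no dye bias. Whether separate tumors gave the RNAs of a genotype is not stated, and p-values measure the spread between these samples only. Values are log2 ratios, RANK-/- over RANK+/+, with SD over n = 3 pairs unless stated otherwise.

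NF-κB is a family of dimeric transcription factors. In resting cells IκB proteins, such as the products of Nfkbia and Nfkbie, hold canonical dimers of RelA, c-Rel and p50 in the cytoplasm, and the IKK kinases release them by marking IκB for degradation. In the non-canonical branch the kinase NIK, encoded by Map3k14, drives the processing of p100, the Nfkb2 product, so that RelB and p52 reach the nucleus. RANK, the receptor encoded by Tnfrsf11a, can engage both branches through TRAF adaptors and is known in the mammary gland for its part in progesterone-driven growth. Nfkbia, Nfkbie and Tnfaip3 are themselves NF-κB targets, and their products restrain the pathway. The comparison addresses how the genes of this pathway differed between tumors labeled RANK-/- and RANK+/+.

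Letters of the promoters show what several of these genes have in common besides their place in the pathway. In RefSeq promoter windows of the GRCm38.p6 assembly, which run from 250 bases before to 50 bases after a gene's start, the κB consensus motif was searched on both strands. A match was present in 1480 of 32851 windows (4.51%), or in at least 1 window of 1388 of 27025 genes (5.14%). Of the 8 genes with a window in this table, 5 had a match, namely Nfkb2, Rel, Nfkbia, Nfkbie and Tnfaip3, while Rela, Birc3 and Icam1 had none in the windows searched. Nfkb1 and Relb were not in the table. The matches describe letters and were not tested for binding. The 150 bases before the start are shown for the 4 tested genes with a match, read 5′ to 3′ along the gene, with matches in capitals. Of the several windows listed for Nfkb2 and Tnfaip3, the one with the most matched stretches before the start is shown.
Nfkb2, chr19:46304587-46304736, plus strand: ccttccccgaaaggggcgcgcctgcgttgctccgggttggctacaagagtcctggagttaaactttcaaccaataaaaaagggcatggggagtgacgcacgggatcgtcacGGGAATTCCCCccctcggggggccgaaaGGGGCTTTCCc
Nfkbia, chr12:55492648-55492797, minus strand: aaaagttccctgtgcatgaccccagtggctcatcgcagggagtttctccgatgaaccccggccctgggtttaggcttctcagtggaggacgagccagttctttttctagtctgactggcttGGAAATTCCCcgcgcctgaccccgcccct
Nfkbie, chr17:45555550-45555699, plus strand: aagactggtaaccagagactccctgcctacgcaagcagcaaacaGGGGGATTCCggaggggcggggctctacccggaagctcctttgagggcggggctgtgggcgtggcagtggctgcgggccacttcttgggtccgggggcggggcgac
Tnfaip3, chr10:19015411-19015560, minus strand: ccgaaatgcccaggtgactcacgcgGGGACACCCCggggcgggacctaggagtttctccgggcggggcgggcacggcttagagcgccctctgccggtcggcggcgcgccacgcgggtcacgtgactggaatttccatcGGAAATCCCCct

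The Nfkbia match spanned positions -29 to -20 from the start. In Tnfaip3 the matches lay at -125 to -116 and at -12 to -3. The first Nfkb2 stretch, -39 to -29, holds overlapping matches, because part of it reads as the motif on both strands, and the second lies at -11 to -2. The Nfkbie match lay at -106 to -97. A second Tnfaip3 window, at a start farther downstream, had no match.

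Technical arrays repeated well, while the pairs correlated little with each other. Ratios of arrays A and B correlated across probes with Pearson r between 0.973 and 0.983, whereas those of different pairs gave r between -0.279 and 0.178. Genes are not independent replicates, so these values are descriptions. Tnfrsf11a went against the labels: its log2 ratio was 2.03, 1.15 and 1.76 in pairs 1, 2 and 3, a mean of 1.65 ± 0.45 (SD, n = 3), with RANK-/- as the brighter channel on all 6 arrays. Whether its probe lies outside the deleted part of the gene is not known here, so it does not settle the labels, and every direction below refers to the channels as labeled. No gene passed an adjusted p of 0.05 in limma's test on the 3 pairs (0% of 22503 genes called), and the adjusted p of each NF-κB gene tested, and of Tnfrsf11a, was 0.999. At an unadjusted p under 0.05, 373 genes had a mean ratio above 0 (1.66%) and 274 a mean ratio below it (1.22%).

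Nfkbia and Tnfaip3, whose products shut NF-κB signaling down, had the highest mean ratios of the 9 genes, at 2.18-fold and 2.01-fold. They were also the ones of the 9 with an unadjusted p under 0.05, against 1.66% of all genes in that direction, and neither passed after adjustment over all genes. The subunit genes had lower mean ratios, from 0.19 to 0.40 on the log2 scale. All 9 genes had a mean ratio above 0, as did 51.0% of all tested genes. The median of the 9 was -0.09 in pair 1, 0.47 in pair 2 and 0.94 in pair 3, while the median of all tested genes was 0.02, -0.01 and 0.00. The pairs thus differed: 4 of the 9 were above 0 in pair 1, and 9 of 9 in pair 2 and in pair 3.

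**Figure D1:**
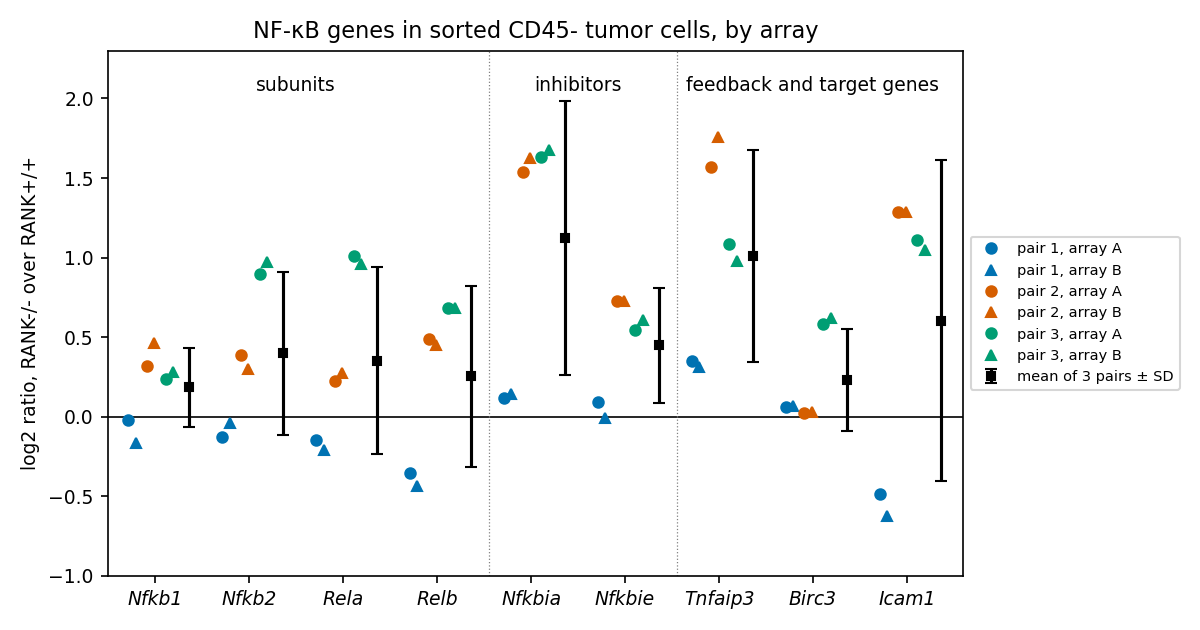
Log2 ratio, RANK-/- over RANK+/+, of the 9 tested NF-κB genes on each array (y axis), grouped by role along the x axis. Circles are arrays A, triangles are arrays B, colors are the 3 pairs, and black squares with bars are the mean ± SD of the pairs; Nfkbia, Tnfaip3 and Birc3 lie above 0 on all 6 arrays, while the 4 subunits and Icam1 lie below 0 in pair 1.

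Rela encodes p65, the activating subunit of the main canonical dimer. Its log2 ratio was -0.18 in pair 1, 0.25 in pair 2 and 0.99 in pair 3, a mean of 0.35 ± 0.59. Pair 3 was 0.74 higher than pair 2, which had the same dye arrangement, and this exceeded the difference between technical arrays (limma adjusted p = 3.57e-06). The 95% interval of the mean, from limma as for all genes here, was -0.37 to 1.07, and the mean was 0.62 without pair 1 and 0.04 without pair 3. Normalized log2 signal was 14.17, 14.64 and 14.89 in the channels labeled RANK-/- and 14.34, 14.39 and 13.91 in those labeled RANK+/+, so the groups overlapped.

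Nfkb1 encodes p105, the precursor of the p50 subunit. Its ratio was -0.09, 0.39 and 0.26, a mean of 0.19 ± 0.25 with a 95% interval of -0.26 to 0.63. The mean was 0.32 without pair 1 and 0.08 without pair 2. A second Nfkb1 probe gave 0.24, 0.02 and 0.24, so the 2 probes had opposite signs in pair 1. Both probes matched the same RefSeq accession. On the brighter probe the sign in pair 1 was not beyond array error (adjusted p = 0.137).

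The subunits of the non-canonical branch also varied by pair. Nfkb2, which encodes p100 and p52, had ratios of -0.09, 0.34 and 0.94, a mean of 0.40 ± 0.51 with a 95% interval of -0.26 to 1.05. Relb, the partner of p52, had ratios of -0.40, 0.47 and 0.68, a mean of 0.25 ± 0.57 with a 95% interval of -0.45 to 0.96. The second Relb probe gave -0.33, 0.31 and 0.50, with the same sign in each pair. Relb was lower in pair 1 beyond array error (adjusted p = 2.01e-05), whereas Nfkb2 was not (adjusted p = 0.116). The mean ratio of Relb was 0.58 without pair 1, 0.14 without pair 2 and 0.04 without pair 3. That of Nfkb2 was 0.64 without pair 1 and 0.13 without pair 3.

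Rel, which encodes c-Rel, the subunit best known from lymphocytes and other leukocytes, was the member that could not be tested. The RANK-/- channel passed the background limit for its probe on 1 of 6 arrays and the RANK+/+ channel on 0 of 6. Rel was not well above background in either group, and no fold is given.

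Nfkbia encodes IκBα, the inhibitor that NF-κB resynthesizes first after activation. Its log2 ratio was 0.12 and 0.14 on the arrays of pair 1, 1.53 and 1.63 on those of pair 2, and 1.63 and 1.68 on those of pair 3. Normalized log2 signal in the channels labeled RANK-/- was 15.28, 16.18 and 15.57, and in those labeled RANK+/+ it was 15.15, 14.60 and 13.92. The lowest RANK-/- value lay above the highest RANK+/+ value, by little, and both came from pair 1. The mean ratio was 1.12 ± 0.86 (SD, n = 3), with a 95% interval of 0.14 to 2.10, which lies above 0 before adjustment for the number of genes. Pairs 2 and 3 differed by 0.07, within array error (adjusted p = 0.285), and pair 1 stood apart from both.

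Nfkbie encodes IκBε, a later-acting inhibitor. Its ratio was 0.04 in pair 1, 0.73 in pair 2 and 0.58 in pair 3, a mean of 0.45 ± 0.36 with a 95% interval of -0.08 to 0.98. In pair 1 the arrays gave 0.09 and -0.01, so the sign there was not settled. Pairs 2 and 3 were both above 0 beyond array error (adjusted p = 6.81e-07 and 2.02e-06). The levels of the genotypes overlapped, with log2 signals of 9.26, 10.09 and 9.07 against 9.22, 9.36 and 8.49.

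**Figure D2:**
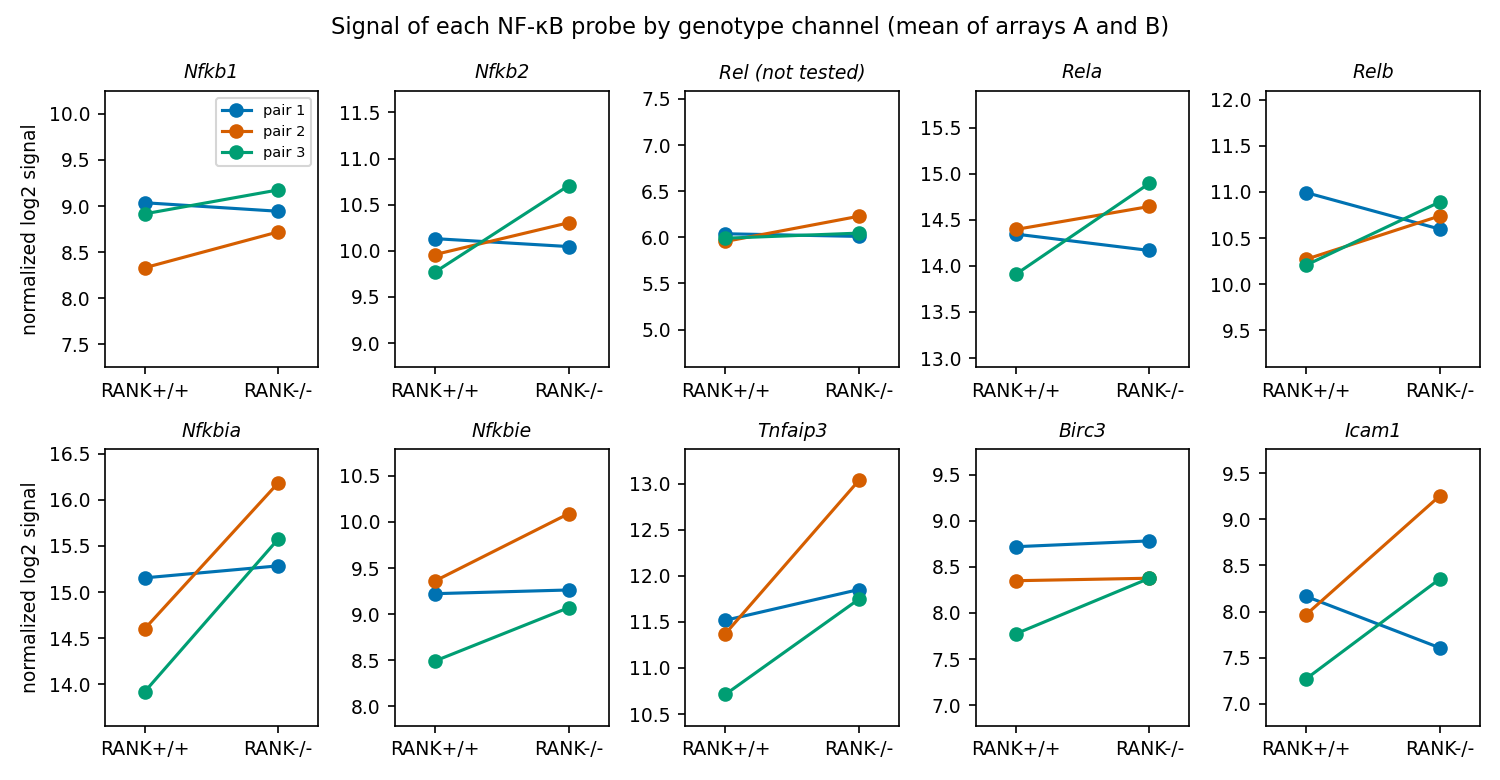
Normalized log2 signal (y axis, each panel spanning the same number of log2 units) of the probe standing for each of the 10 genes in the RANK+/+ and RANK-/- channels (x axis), with a line for each pair and arrays A and B averaged. Lines run upward in all 3 pairs for Nfkbia, Nfkbie, Tnfaip3 and Birc3, and cross for Icam1; levels of different probes are not comparable with each other.

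Tnfaip3 encodes A20, a ubiquitin-editing enzyme that ends signaling from TNF-family and Toll-like receptors. Its log2 ratio was 0.35 and 0.31 on the arrays of pair 1, 1.57 and 1.76 on those of pair 2, and 1.09 and 0.98 on those of pair 3. The log2 signals were 11.85, 13.03 and 11.75 in the channels labeled RANK-/- and 11.52, 11.37 and 10.71 in those labeled RANK+/+. These groups did not overlap. The mean ratio was 1.01 ± 0.66 (SD, n = 3), with a 95% interval of 0.22 to 1.80, again above 0 before adjustment. Of the 9 genes, Tnfaip3 and Nfkbia had channels that did not overlap with RANK-/- higher, as did 3.66% of all genes.

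Birc3 encodes cIAP2, a ubiquitin ligase of the TRAF complexes that protects cells from death signals. Its ratio was 0.06 in pair 1, 0.03 in pair 2 and 0.60 in pair 3, a mean of 0.23 ± 0.32 with a 95% interval of -0.27 to 0.73. Pair 3 exceeded pair 2 by 0.58 (limma adjusted p = 1.12e-05). In pairs 1 and 2 the ratio was within array error of 0 (adjusted p = 0.163 and 0.551), and without pair 3 the mean was 0.05.

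Icam1 encodes an adhesion molecule through which leukocytes hold on to endothelium and to target cells. Its log2 ratio was -0.49 and -0.62 on the arrays of pair 1, 1.29 and 1.28 on those of pair 2, and 1.11 and 1.05 on those of pair 3. Icam1 thus had the widest spread between pairs of the 9 genes, with a mean of 0.60 ± 1.01 and a 95% interval of -0.53 to 1.73. The signal was 7.61, 9.25 and 8.35 in the channels labeled RANK-/- and 8.16, 7.97 and 7.27 in those labeled RANK+/+. Pair 1 was below 0 beyond array error (adjusted p = 4.33e-06) and pairs 2 and 3 above it (adjusted p = 3.36e-08 and 5.25e-08). The mean was 1.18 without pair 1, 0.26 without pair 2 and 0.36 without pair 3.

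By sign, Nfkbia, Nfkbie, Tnfaip3 and Birc3 had a ratio above 0 in each pair, 4 of 9 genes against 9.93% of all tested genes. None of the 9 had a ratio below 0 in each pair, as 9.65% of all genes were. Nfkb1, Nfkb2, Rela, Relb and Icam1 turned from a ratio below 0 in pair 1 to ratios above 0 in the other pairs, 5 of 9 against 13.5% of all genes. These signs depended on the within-array normalization for the small ratios. With median centring in place of loess, the median of all genes itself moved to 0.13, -0.19 and -0.39 in the 3 pairs. Relative to it Nfkb1 lay at -0.04, 0.38 and 0.14 and Nfkb2 at 0.0009, 0.29 and 0.75, so the sign of Nfkb2 in pair 1 was not settled. On the same footing Rela lay at -0.05, -0.06 and 0.49, Relb at -0.29, 0.40 and 0.49, Icam1 at -0.56, 1.28 and 1.08, Nfkbia at 0.26, 1.21 and 1.12, and Tnfaip3 at 0.45, 1.52 and 0.81. With the processed signals, Nfkbie and Birc3 were below 0 in pair 1, at -0.10 and -0.06, which left Nfkbia and Tnfaip3 with one sign. The median of all genes in that pair was then -0.10, and relative to it Nfkbie lay at -0.002 and Birc3 at 0.04.

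Within pairs, the ratio against 0 was tested with the spread between technical arrays, which compares these RNAs and not the genotypes. Dye bias is not part of that spread, so within a pair it cannot be told apart from a difference between the RNAs. In pair 1, 2 of the 9 genes were above 0 (37.9% of all genes) and 3 below (34.6%). In pair 2, 8 of 9 were above 0 (32.8% of all genes), all but Birc3. In pair 3, 9 of 9 were above 0 (37.3% of all genes). At least 2-fold higher in the channel labeled RANK-/- were 0 of 9 in pair 1 (3.66% of all genes), 3 of 9 in pair 2 (2.45%) and 3 of 9 in pair 3 (4.91%), and in both of these pairs the 3 were Nfkbia, Tnfaip3 and Icam1. All 9 differed between pairs beyond array error, as did 88.4% of all genes, so this share is close to the background. Pair 3 differed from pair 2 for 7 of 9 genes, against 72% of all genes. The rank product called 0 of the 9 at a proportion of false positives under 0.05 (0.0311% of all genes).

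**Figure D3:**
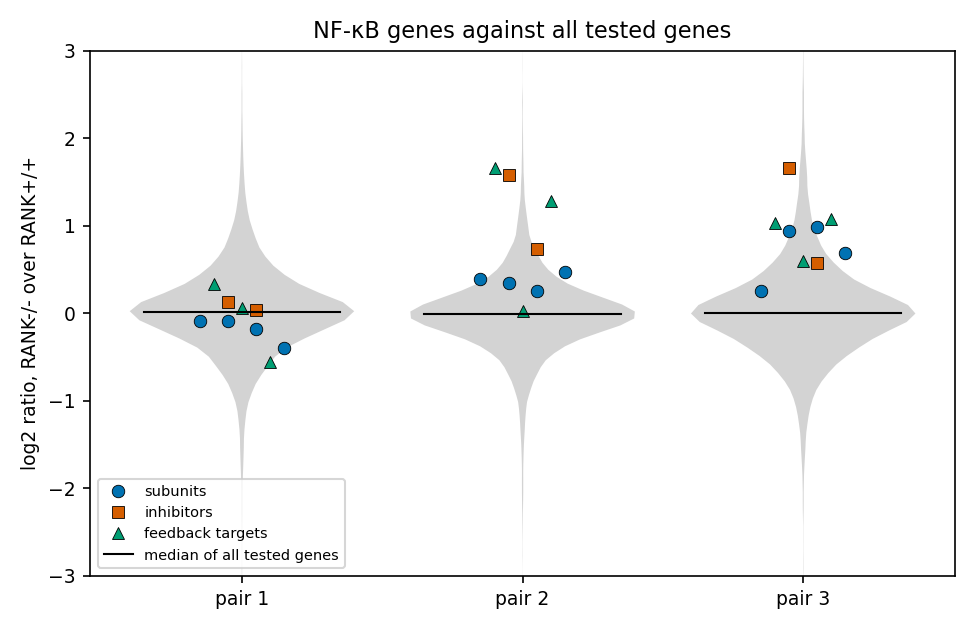
Log2 ratios, RANK-/- over RANK+/+ (y axis), of the 9 NF-κB genes (symbols by role) over the distribution of all 22503 tested genes (gray shapes, black line at the median) in each pair (x axis, ratios beyond the axis not shown). The 9 genes lie around the median in pair 1 and at or above it in pairs 2 and 3, where their medians were 0.47 and 0.94.

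Roles within the family differed in size. The median ratio in pairs 1, 2 and 3 was -0.13, 0.37 and 0.81 for the 4 subunits tested, 0.08, 1.16 and 1.12 for the 2 inhibitors, and 0.06, 1.29 and 1.03 for the 3 feedback and target genes. Nfkbia, Nfkbie, Tnfaip3 and Icam1 were above 0.5 in both pairs 2 and 3. Nfkb2, Rela, Relb and Birc3 were higher in pair 3 than in pair 2, as was Nfkbia by 0.07, within array error. These are medians of few genes and were not tested.

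Upstream of the members, the pathway genes gave no call. Of 66 listed genes for other IκB proteins, IKK and its upstream kinases, TRAFs and adaptors, negative regulators and receptors, 64 were tested and 0 passed limma's adjusted p. Without adjustment, 1 was higher at p under 0.05, Tnfrsf11a itself, and 0 lower. Of the 64, 8 were higher in all 3 pairs, against 9.93% of all genes, and 2 lower, against 9.65%. The median ratio of the 15 genes for IKK subunits and upstream kinases was 0.03, 0.09 and -0.05. Map3k14, the kinase of the non-canonical branch, had ratios of 0.15, 0.09 and 1.40, so its mean of 0.55 ± 0.74 rested on pair 3.

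Among the other regulators, few genes kept one sign. Traf5, an adaptor of TNF-family receptors, had ratios of 0.43, 1.00 and 0.14. Il1r1, the signaling receptor for IL-1, had ratios of 0.09, 0.58 and 0.96. Bcl3, a nuclear IκB protein that works with p50 and p52, had the largest mean of its list without one sign, at 0.21, -0.31 and 1.56. Nlrc5, known as an activator of MHC class I genes and listed here for its action on IKK, also lacked one sign, with -0.81, 1.47 and 0.83.

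Further NF-κB targets varied by pair as well. Of 33 other canonical target genes 31 were tested, and 0 passed limma's adjusted p. Without adjustment, 4 were higher at p under 0.05 (1.66% of all genes) and 1 lower (1.22%). Higher in all pairs were 7 (9.93% of all genes) and lower in all 1 (9.65%), and 14 had the signs of Icam1, below 0 in pair 1 alone (13.5%). With median centring, where all ratios shift, these 3 counts were 10, 2 and 7. The shares of all genes given here are those with loess and do not apply to them. The median of the 31 was -0.04 in pair 1, 0.32 in pair 2 and 1.09 in pair 3.

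The chemokine gene Cxcl1, whose product draws neutrophils, was the steadiest of the targets named here, which were picked for large means. Its ratio was 1.15, 1.39 and 1.09, a mean of 1.21 ± 0.16 (limma adjusted p = 0.999). Among targets with smaller means, Ier3 varied less, with 0.65, 0.76 and 0.85. Irf1, a transcription factor gene driven by NF-κB and by interferon, followed the pattern of Nfkbia with 0.29, 1.53 and 1.63. Il6, a cytokine gene, had ratios of 0.60, 0.37 and 3.02, so pair 3 was far above the others. Of 7 genes listed as targets of the non-canonical branch, 6 were tested. Of these, 2 were higher in all pairs (9.93% of all genes). They were Ccl19, a chemokine for T cells and dendritic cells, at 0.49, 0.43 and 1.15, and Enpp2, which encodes autotaxin, at 0.67, 1.66 and 0.44. The other 4 had the signs of Relb (13.5% of all genes). This count was 3 with median centring and with processed signals.

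Genes of the interferon γ response also varied by pair. Of the 17 interferon γ response genes, 12 had the signs of Icam1 (13.5% of all genes), and 4 were higher in all pairs (9.93%). With median centring these counts were 9 and 5, to which the shares with loess do not apply. Their median was -0.23, 1.82 and 1.18. Their signals were also summed, a sum in which the brightest genes weigh most. The log2 of the sum was 16.14 to 18.13 in the channels labeled RANK-/- and 14.67 to 16.86 in those labeled RANK+/+. This list shares 3 genes with the canonical targets. Without them 12 of 28 targets had the signs of Icam1. The part of this response in the ratios of Icam1, Nfkbia and the subunits was not tested.

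Markers of other cell types also varied with the pair. All 12 fibroblast markers were well above background, with a median ratio of 0.20, 0.49 and 1.61. The log2 of their summed signal was 17.21 to 17.93 in the channels labeled RANK-/- and 15.84 to 17.25 in those labeled RANK+/+. Of the 12, 4 were above 0 in each pair, and the 3 of these with the highest means were 2 collagen genes and a growth factor receptor gene: Col1a1 had ratios of 0.68, 0.30 and 1.94, Col1a2 0.61, 0.85 and 2.38, and Pdgfra 0.16, 0.20 and 1.26. The other 8 were not of one sign, among them, picked after their values were seen, Lum with -0.23, 1.04 and 2.33 and Pdgfrb with 1.60, -1.03 and 0.76. The median of the fibroblast markers was thus highest in pair 3, as were those of the luminal and endothelial markers, given below. Rela, Nfkb2, Relb and Birc3 were also highest in pair 3, as was Nfkbia, which was there within array error of pair 2. The part of fibroblast RNA in those ratios was not tested, and in such bulk samples fewer cells of a type and less RNA per cell cannot be told apart.

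Leukocyte markers were measurable in the CD45- fraction. Of 16 markers 11 were tested, with a median ratio of -0.65, 0.20 and 0.14. The log2 of their summed signal was 13.18 to 13.63 in the channels labeled RANK-/- and 13.07 to 14.93 in those labeled RANK+/+. Ptprc, which encodes CD45 itself, passed the background limit on 5 of 6 arrays in the RANK-/- channel and 4 of 6 in the other, with ratios of -0.93, 0.10 and 0.14. S100a8, a neutrophil and myeloid gene, had ratios of -3.99, 0.07 and -0.11. The sum was thus highest in the RANK+/+ channel of pair 1, the pair in which Icam1 and Relb were lower in RANK-/-, and its part in those ratios was not tested.

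Epithelial markers were present in every channel. Krt8, Krt18 and Epcam were well above background on all 6 arrays in both channels. Their ratios were -0.41, -0.55 and 2.08 for Krt8, 0.45, -1.34 and 1.65 for Krt18, and 1.04, -0.67 and 0.52 for Epcam. Removal of outlier spots left Krt8 without a value on a B array, so its ratios do not all average A and B. Krt19, another luminal keratin gene, had -1.22, -3.95 and 0.03. The median of the 10 luminal markers was 0.29, -0.51 and 0.73. The log2 of their summed signal was 17.48 to 18.96 in the channels labeled RANK-/- and 17.68 to 18.30 in those labeled RANK+/+. The median of the luminal markers was therefore lowest in pair 2 and highest in pair 3, while Nfkbia, Tnfaip3 and Icam1 were high in both. The part of luminal RNA in those ratios was not tested. The 8 basal markers had a median of 0.04, 0.00 and -0.07. The log2 of their summed signal was 14.81 to 15.02 in the channels labeled RANK-/- and 15.18 to 15.72 in those labeled RANK+/+. Of the 8, 1 was above 0 in each pair, Oxtr, the oxytocin receptor gene of myoepithelium, at 1.84, 0.74 and 0.08. Basal keratin genes, picked after their values were seen, had -1.41, -2.13 and 0.33 for Krt5, -1.81, 0.12 and -0.44 for Krt14, and -1.66, 0.05 and -2.10 for Krt17. These were below 0 in pair 1, whereas the rest of the 8 were above 0 there. Beside Oxtr, these were Acta2 at 0.89, Trp63 at 0.28, Cnn1 at 0.07 and Myh11 at 0.001. A Trp63 probe that did not stand for the gene gave -1.45 in pair 1. The 10 endothelial markers had a median of -0.02, -0.18 and 0.56. Among them, Pecam1 had ratios of 0.02, -0.25 and 0.29, and Tek, an angiopoietin receptor gene without one sign, had -0.02, 0.23 and 0.42.

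**Figure D4:**
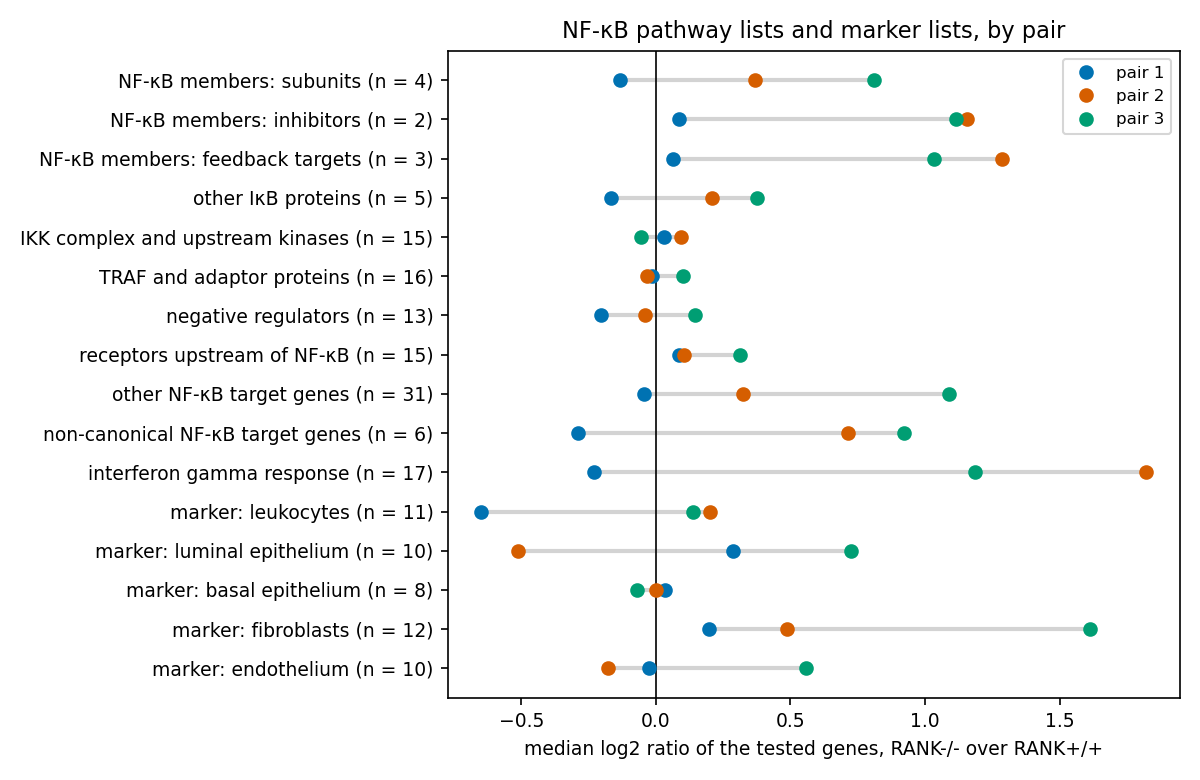
Median log2 ratio, RANK-/- over RANK+/+ (x axis), of the tested genes of each list (rows, with their number n) in pairs 1, 2 and 3 (colors). The lists of NF-κB inhibitors, feedback targets and interferon γ response genes have medians above 1 in pairs 2 and 3, and the lists of kinases and adaptors lie close to 0 in every pair.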

How the data were processed

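Sorted CD45- cells of RANK-/- and RANK+/+ tumors were compared on 6 two-color SurePrint G3 mouse arrays. The authors extracted spots with Feature Extraction 10.7.3.1. Their deposited tables of each array hold, without normalization, the median intensity of spot and background. The deposited series table holds the authors' normalized log2 ratios, whose direction was not stated and which ran as RANK-/- over RANK+/+ against the scanner values. It served as an alternative, and 0 of its columns lacked a sample. Per the labels arrays A and B of a pair shared one dye arrangement, although the methods describe dye swaps.

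Median signals were corrected with normexp (offset 50) and normalized by loess and Aquantile in limma 3.58.1 (R 4.3.3, data.table (version 1.17.8)). Control and outlier spots were removed, and 0 spots were saturated. Arrays A and B were averaged, each pair being 1 replicate. A probe was kept when 1 genotype's channel was well above background on A and B of 2 or more pairs, and the brightest kept probe stood for a gene. Symbols came from RefSeq (GRCm38.p6) by accession. Per array and channel 51.9% to 58.8% of gene probes were well above background, and the number of arrays limits the precision.

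Pair ratios were tested with limma (intercept only, two-sided, Benjamini-Hochberg over all genes, threshold 0.05), and with a rank product whose p came from a gamma approximation, giving a proportion of false positives. An exact two-sided sign-flip test of 3 pairs cannot go below 0.25. Differences between pairs and pair ratios against 0 were tested over the 6 arrays with pair as a factor. The 95% intervals are limma's. The fits were tested on simulated data.

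The members, lists and naming rule were chosen with earlier results of these data known. The rule named the members and Tnfrsf11a. From each other list it named up to 3 genes of one sign with an absolute mean of at least 0.5, or else the gene of largest absolute mean, and it added the defining markers Ptprc, Krt8, Krt18, Epcam, Col1a1 and Pecam1. The alternatives were other background corrections, normalizations, signals, filters, probe rules, array choices, dye and pairing terms, and each pair left out. All arrays lay on 1 slide with 1 scan date. Whether samples of one pair number belong together was checked by the correlation of their deviations from the group means, which was -0.03, -0.22 and -0.04. This cannot decide it, because each group mean rests on 3 samples and the channels of a pair differ in dye. The labels show only that samples of a pair shared arrays.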

Additional observations from a re-analysis of the deposited data

Results flagged for a closer look

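On the probe standing for each gene, the 5 genes Nfkb1, Nfkb2, Rela, Relb and Icam1 had ratios below 0 on both arrays of pair 1. They were above 0 on every array of pairs 2 and 3. In pair 1 Nfkb1 and Nfkb2 were within array error of 0 (limma adjusted p = 0.137 and 0.116), and the second Nfkb1 probe was at 0.24. With median centring Nfkb1, Nfkb2 and Rela were above 0 in pair 1, at 0.09, 0.13 and 0.08, where the median of all genes was 0.13. The mean of pairs 2 and 3 minus pair 1 was 0.42 for Nfkb1, 0.73 for Nfkb2, 0.79 for Rela, 0.97 for Relb and 1.74 for Icam1, on the log2 scale. The difference between the dye arrangements was not tested, since pair 1 is the only pair with RANK-/- in Cy5. Signs opposite between pair 1 and the other pairs on every array, in either direction, were found for 4774 genes, 21.2% of all tested.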

How the results depend on the processing

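No member passed the limma threshold under any of 18 alternatives, with adjusted p of at least 0.2499, and 161 of 162 mean ratios of members kept their direction. The exception was Rela with median centring, with a mean log2 ratio of -0.024, where the median of all genes was -0.14. With a dye term, the means of all 9 members stayed above 0, and their median was 0.28, against 0.40 without it. They then ran from 0.09 for Relb to 0.87 for Nfkbia, with Icam1 at 0.31. Only pair 1 had RANK-/- in Cy5, so that term rests on 1 pair. The number of members with one sign in all pairs was 2 with processed signals, and ranged from 4 to 9 when 1 pair was left out, with 9 reached without pair 1. Without pair 1 the mean ratio of Nfkbia was 1.62 and that of Tnfaip3 1.35, and without pair 3 these were 0.86 and 1.00. The number of genes past the limma threshold was 13 with 6 arrays and the pair as a random block, whose consensus correlation was 0.96. The rank product called 23 genes without the filter on dim probes, 0 to 5 when 1 pair was left out (2 without pair 1, 0 without pair 3), and 18 (10 higher, 8 lower) when p came from counting rank triples, an alternative chosen after seeing the data. It called 7 (4 higher, 3 lower) otherwise. The cause of these differences was not tested.

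With no replicate block, that is, with the pairing ignored, the limma count was 0 genes (830 without adjustment at 0.05, 2 of them members), and no call changed. Probes close to background, such as that of Rel, have only bounds.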
